A study of Rattus norvegicus with 6 samples.

Results

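A group of microRNAs (miRNAs, short RNAs that repress target mRNAs through base pairing) known for roles in liver, pancreatic islets and insulin or lipid control was measured in the testes of diabetic and normal rats. The members were the entries of the deposited miRNA table named miR-33, miR-103, miR-107, miR-122 or miR-375, either arm of the hairpin. There were 8 of them among 721 entries. miR-122-5p, listed as rno-miR-122-5p, was put in the group because it had stood out in the diabetic against normal contrast of these same libraries. Its difference between the groups is therefore given as a description and was not tested. The other members were chosen by name, but with earlier results of these data known.

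The testes came from Sprague-Dawley rats, and small RNA was profiled in 3 diabetic and 3 normal libraries. Diabetes had been produced with streptozotocin (STZ), which destroys the insulin-producing beta cells, after a period of high-fat feeding, and the profiles were taken at week 8. Normal animals received the citrate buffer in which STZ was dissolved, and whether they also had the high-fat diet was not stated in the sources used here. The model therefore joins a diet and a toxin, whose effects cannot be told apart here. The rats were adult males, and no age in weeks and no statement on pooling of animals was found in the sources used here.

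Libraries held 305476 to 549446 reads over the listed miRNAs. Levels are in CPM, read counts put on one common library total, and 1 read was worth 1.82 to 3.27 CPM. The tissue label was checked against miRNAs of testis germ and Sertoli cells. miR-34c-5p, abundant in meiotic and later germ cells, averaged 286986 ± 10910 CPM in diabetes and 295956 ± 24822 CPM in normal testes (SD, n = 3 each). miR-449a-5p, of the same family, was at 31436 ± 1115 and 31132 ± 696 CPM (SD, n = 3 each). All 5 markers of this list were above 0 in each library.

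As background, miR-122 is the dominant miRNA of hepatocytes, where it sustains cholesterol and fatty acid metabolism, and it also circulates in blood. miR-375 is rich in islets and restrains insulin secretion. miR-103 and miR-107 dampen insulin sensitivity in liver and fat and come from genes lying within the pantothenate kinase genes, which make coenzyme A. miR-33 lies within Srebf2, a master regulator of cholesterol synthesis, and represses the cholesterol exporter Abca1.

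The mature sequences of the 4 abundant members are shown because they tell which members a short read can separate. They are from RefSeq on assembly GRCr8, 5′ to 3′, with the seed (bases 2 to 8, which pair with targets) in capitals.
miR-122-5p: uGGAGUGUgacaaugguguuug
miR-375-3p: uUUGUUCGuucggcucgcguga
miR-103-3p: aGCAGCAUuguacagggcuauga
miR-107-3p: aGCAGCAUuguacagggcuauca

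miR-103-3p and miR-107-3p had the same seed, and 22 of their 23 bases were identical. The single difference was G22C, counted from 1 at the 5′ end of miR-103-3p, next to the last base. Reads with an altered or trimmed 3′ end could be given to either, and how such reads were assigned is not given in the sources used here, so the split between them is uncertain. miR-122-5p and miR-375-3p had seeds of their own, which no other table entry matched to RefSeq held. The arms of miR-33 carried 2 further seeds.
miR-33-5p: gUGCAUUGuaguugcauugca
miR-33-3p: cAAUGUUUccacagugcauca

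In GRCr8, miR-122-5p lies at chr18:61028831-61028852 on the plus strand, within the transcribed pseudogene entry LOC134482951 and within the span of the hairpin gene Mir3591. miR-375-3p lies at chr9:83906591-83906612 on the minus strand, within the span of Cryba2 on the same strand. miR-107-3p lies at chr1:241750431-241750453 on the minus strand, within Pank1 on that strand. Identical copies of miR-103-3p are held by 2 hairpins, Mir103a2 at chr3:138963227-138963312 within Pank2 and Mir103a1 at chr10:20748474-20748559 within Pank3, so its reads cannot be attributed to one gene. Both arms of miR-33 lie within Srebf2, with miR-33-5p at chr7:115593957-115593977 on the plus strand. These positions belong to the reference, since the deposited table carries none.

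The members differed widely in level. miR-103-3p was the most abundant, at rank 27 of 721 by mean CPM, followed by miR-122-5p at rank 61, miR-375-3p at 74 and miR-107-3p at 86. miR-33-5p and miR-33-3p stood at ranks 342 and 394. Since a read covers a whole miRNA, no correction for length was needed, but adaptor ligation favours some miRNAs over others, so levels of different miRNAs compare only roughly. All members together took 0.990% to 1.19% of a library's reads.

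**Figure D1:**
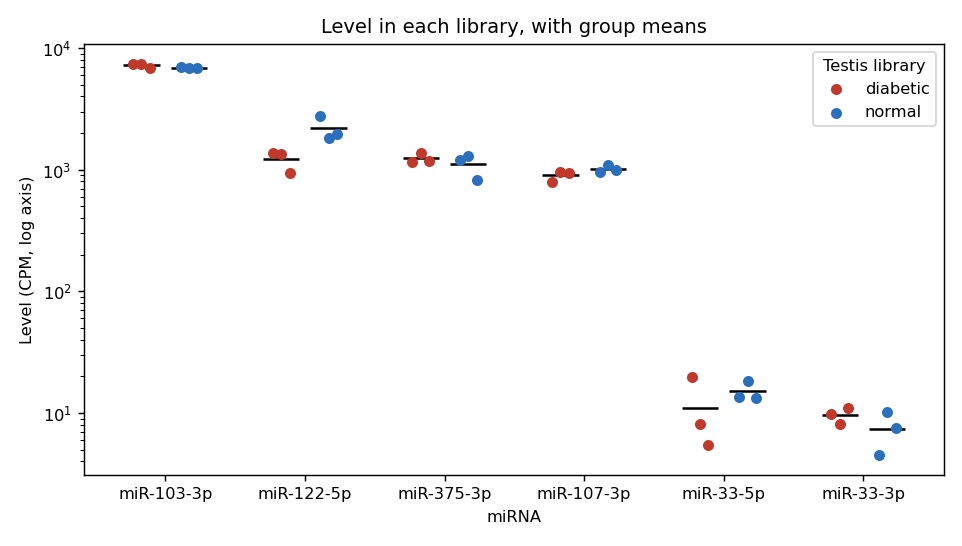
Level of the 6 members that passed the filter (CPM, log axis) in each of the 3 diabetic and 3 normal testis libraries, with group means as black bars. The normal libraries lie above the diabetic ones for miR-122-5p, from 1839 to 2786 against 936 to 1372 CPM, while the groups overlap for miR-103-3p, miR-375-3p and both arms of miR-33.

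miR-122-5p was lower in every diabetic library than in any normal library. Diabetic replicates 1, 2 and 3 held 419, 499 and 514 reads, or 1372, 1341 and 936 CPM. Normal replicates 1, 2 and 3 held 1229, 906 and 1041 reads, or 2786, 1839 and 1964 CPM. Diabetic replicate 3 was the lowest library and normal replicate 1 the highest.

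The mean was 1216 ± 243 CPM with diabetes and 2196 ± 514 CPM without (SD, n = 3 each), so the diabetic mean was 55.4% of the normal one. On the log2(CPM + 1) scale the difference was -0.85 with a standard error of 0.17. That standard error is moderated by limma towards the spread of miRNAs of like level. It was 0.26 with eBayes without that trend in level. In testis as a whole, fewer cells that hold the miRNA and less of it per cell cannot be told apart. In rank by group mean, miR-122-5p stood at 52 among normal and at 74 among diabetic libraries.

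Counting error was small beside the spread between libraries. The 95% Wilson interval of the highest diabetic library ran from 1247 to 1509 CPM and that of the lowest normal library from 1723 to 1963 CPM. These intervals cover counting error only. The coefficient of variation between replicates was 20.0% in diabetic and 23.4% in normal libraries, where counting alone gives 4.58% and 3.07%. The spread between libraries of one group, more than depth, limited the precision of miR-122-5p.

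The difference of miR-122-5p was smallest without normal replicate 1, at -0.66, and largest without normal replicate 2, at -0.96. Of miRNAs of like abundance, the pair just above in mean CPM was miR-871-3p, a testis X-linked miRNA, and miR-101a-3p, and the pair just below was miR-152-3p and miR-34b-5p. miR-871-3p differed by 0.13 (SE 0.14), miR-101a-3p by -0.077 (SE 0.11) and miR-34b-5p by 0.16 (SE 0.12), with limma adjusted p-values of 0.808, 0.831 and 0.774. miR-152-3p was at 1231, 1537 and 1270 CPM with diabetes and at 1759, 1975 and 1762 CPM in normal libraries. Its groups did not overlap, and its log2 difference was -0.45 (SE 0.12, limma adjusted p = 0.348).

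miR-103-3p, which dampens insulin sensitivity, did not pass the test. It was at 7454, 7451 and 6811 CPM in diabetic replicates 1, 2 and 3 and at 6931, 6904 and 6872 CPM in the normal ones. Diabetic replicate 3 lay below all normal libraries and the other diabetic libraries above them. The log2 difference was 0.067 with a 95% interval from -0.12 to 0.25 (limma adjusted p = 0.808, exact permutation p = 0.4). With 2277 to 3742 reads a library, it was the most precisely counted member, and its coefficient of variation was 5.12% in diabetic and 0.428% in normal libraries. Counting alone gives 1.85% and 1.72%, so the normal value is below counting error and does not measure the spread between animals.

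miR-107-3p held 243, 354 and 519 reads in the diabetic libraries, or 796, 952 and 945 CPM. The normal libraries held 420, 540 and 529 reads, or 952, 1096 and 998 CPM. The groups did not overlap, but diabetic replicate 2 and normal replicate 1 were only 0.4 CPM apart. The log2 difference was -0.18 with a 95% interval from -0.45 to 0.09 (limma adjusted p = 0.728), and it was -0.096 without diabetic replicate 1. The exact permutation p was 0.1, the smallest that 3 against 3 libraries allow.

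The ratio of miR-103-3p to miR-107-3p within a library does not depend on the library total. It was 9.37, 7.83 and 7.21 in diabetic and 7.28, 6.30 and 6.89 in normal replicates 1, 2 and 3. The groups overlapped, with diabetic replicate 3 below normal replicate 1. The mean was 8.14 ± 1.11 against 6.82 ± 0.495 (SD, n = 3 each), and the two-sided exact permutation p was 0.2. It was 1 of 3 ratios tested, for which the Benjamini-Hochberg adjusted p was 0.3. Its log2 difference was 0.25, and 0.14 without diabetic replicate 1.

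miR-375-3p was at 1152, 1384 and 1189 CPM with diabetes and at 1197, 1299 and 821 CPM in normal replicates 1, 2 and 3. The groups overlapped, and normal replicate 3 was the lowest library. The log2 difference was 0.19 with a 95% interval from -0.15 to 0.53 (limma adjusted p = 0.795, exact permutation p = 0.6). This difference rested on normal replicate 3, without which it was -0.011.

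The ratio of miR-375-3p to miR-107-3p was 1.45, 1.45 and 1.26 in diabetic and 1.26, 1.19 and 0.822 in normal libraries. The groups were apart by less than 0.01 (exact permutation p = 0.1, adjusted p over the 3 ratios = 0.3). Its log2 difference was 0.37, and 0.18 without normal replicate 3. For miR-375-3p to miR-103-3p the exact permutation p was 0.8, as was the adjusted p.

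The order of the 3 members of middle abundance is given as a description. In normal libraries miR-122-5p lay above miR-375-3p and miR-107-3p in each library, while the ranges of the latter pair overlapped. In diabetic libraries the range of miR-122-5p overlapped those of both others, and miR-375-3p lay above miR-107-3p in each library.

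The arms of miR-33 were scarce. miR-33-5p, the arm known to repress Abca1, held 6, 3 and 3 reads in diabetic and 6, 9 and 7 in normal libraries, and miR-33-3p held 3, 3 and 6 against 2, 5 and 4. Both groups overlapped for each arm. The log2 differences were -0.57 for miR-33-5p, with a 95% interval from -1.94 to 0.79, and 0.39 for miR-33-3p, with one from -1.06 to 1.83 (limma adjusted p = 0.808 and 0.842). The exact permutation p was 0.4 for miR-33-5p and 0.3 for miR-33-3p where 0.1 is the smallest possible. Single libraries moved both values: without diabetic replicate 1 miR-33-5p was at -1.05 and without diabetic replicate 3 at -0.21, and without normal replicate 1 miR-33-3p was at 0.11 and without normal replicate 2 at 0.62.

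The remaining members were the minor arms of miR-103 and miR-107. miR-103-1-5p had 2 reads in normal replicate 3 and 0 in each other library, where 0 reads allow up to 5.46 to 9.82 CPM (3 reads). miR-107-5p had 1 read in diabetic replicate 1 and 0 in each other library, which allows up to 5.46 to 8.06 CPM. Both stayed under the filter of 1 CPM in 3 libraries, so 6 of the 8 members passed it. Of these, 5 were tested and miR-122-5p was described only. No fold is given for them.

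Of the 5 tested members other than miR-122-5p, 3 were higher and 2 lower in diabetes by direction alone. At an unadjusted limma p under 0.05 there were 0 of them, against 8.82% of all 578 miRNAs tested. At an adjusted p under 0.05 there were 0, against 0.0% of all tested, and edgeR and DESeq2 on the recovered reads also called 0 of them. Groups did not overlap for 1 of the 5, miR-107-3p, against 14.9% of all tested (6.92% lower and 7.96% higher in diabetes). Their median log2 difference was 0.067, beside 0.0046 over all tested.

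**Figure D2:**
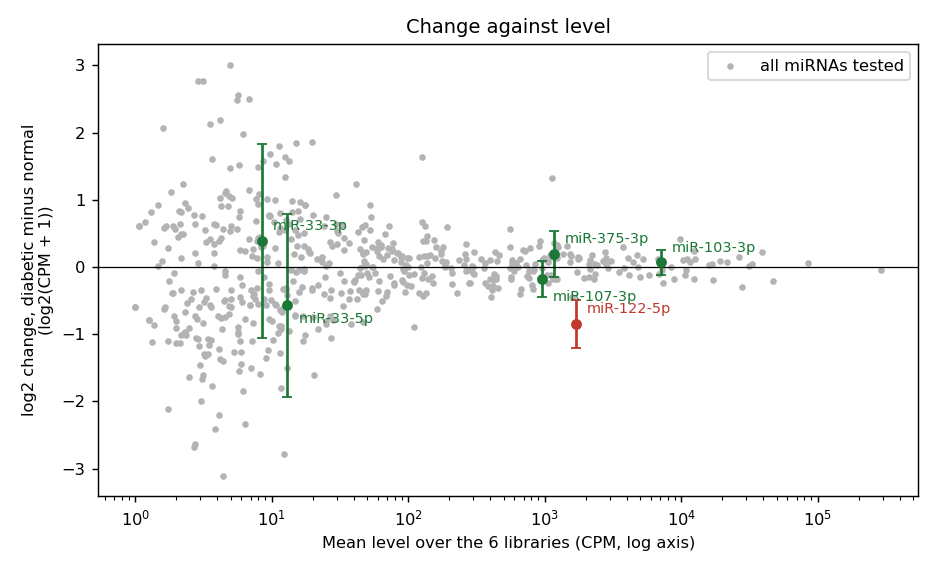
Log2 change, diabetic minus normal (y axis, log2(CPM + 1)), against mean CPM over the 6 libraries (log axis) for all 578 miRNAs tested (grey) and the 6 members that passed the filter, with 95% intervals. miR-122-5p (red) lies at -0.85, the 3 other abundant members lie between -0.18 and 0.19, and the arms of miR-33 have wide intervals. The interval of miR-122-5p does not allow for its choice by this same contrast and is not a test.

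miR-122-5p was compared with the other abundant members by ratios within a library, given as a description. Against miR-103-3p its ratio was 0.184, 0.180 and 0.137 in diabetic and 0.402, 0.266 and 0.286 in normal replicates 1, 2 and 3. Against miR-375-3p it was 1.19, 0.969 and 0.787 in diabetic and 2.33, 1.42 and 2.39 in normal libraries. Normal libraries were above diabetic ones for both ratios. Against miR-107-3p it was 1.72, 1.41 and 0.990 in diabetic and 2.93, 1.68 and 1.97 in normal libraries, and there the groups overlapped, with diabetic replicate 1 above normal replicate 2. The log2 differences of the ratios were -0.92 (SE 0.23) against miR-103-3p, -1.04 (SE 0.30) against miR-375-3p and -0.67 (SE 0.33) against miR-107-3p. These SEs come from the spread of each ratio alone, unlike the moderated SEs of single miRNAs.

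**Figure D3:**
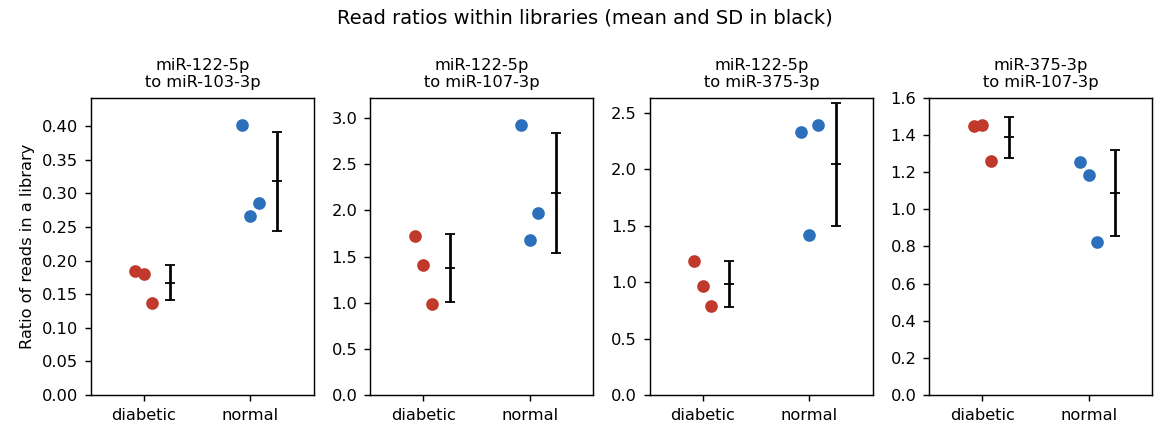
Ratios of reads within each library (y axis from 0) for miR-122-5p against 3 other members and for miR-375-3p against miR-107-3p, with points for libraries and mean and SD in black (n = 3 each). The diabetic libraries lie below the normal ones for miR-122-5p to miR-103-3p and to miR-375-3p, and the groups overlap for miR-122-5p to miR-107-3p.

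Other miRNAs rich in liver were looked at beside miR-122-5p. Of a liver list of 5, 3 were measured, and miR-122-3p and miR-802-5p had no entry under these names. miR-194-5p was at 769, 780 and 622 CPM with diabetes and at 782, 851 and 1104 CPM in normal libraries, groups that did not overlap (log2 difference -0.32, SE 0.15, limma adjusted p = 0.551). Without normal replicate 3 its difference was -0.18. miR-192-5p, transcribed with a miR-194 copy and named after its values were seen, was at 868, 753 and 555 against 864, 737 and 800 CPM and overlapped (log2 difference -0.16, SE 0.16, limma adjusted p = 0.795). Diabetic replicate 3 was the lowest library for both, as for miR-122-5p. Both were lower in diabetes by direction, as were 286 of all 578 tested, with a median log2 difference of -0.24 beside 0.0046 over all tested. At an unadjusted limma p under 0.05 there were 0 of them, against 8.82% of all tested. Groups did not overlap for 1 of them, against 14.9%. miR-122-5p was left out of these liver counts, since it was chosen for its own direction.

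Without miR-122-5p the summed level of the liver list was 1178 to 1637 CPM with diabetes and 1588 to 1903 CPM in normal libraries, which overlapped. None of the 3 measured liver miRNAs was at 0 in any library. The 4 red blood cell miRNAs summed to 544 to 782 CPM with diabetes and 678 to 741 CPM in normal libraries, so the diabetic range spanned the normal one. Their most abundant, miR-486, was at 409 ± 72.9 and 437 ± 24.8 CPM, and miR-451-5p at 188 ± 58.4 and 184 ± 33.7 CPM (SD, n = 3 each). At an unadjusted limma p under 0.05 there were 0, against 8.82% of all tested. Among the red blood cell miRNAs 1 was higher and 3 lower, with a median of -0.062. The lowest difference among them was that of miR-144-5p, named after its values were seen, at 39.3, 10.8 and 9.1 CPM in diabetic and 27.2, 42.6 and 34.0 CPM in normal libraries, which overlapped (log2 difference -1.05, SE 0.56, limma adjusted p = 0.648). The part of blood or liver RNA in the level of miR-122-5p was not tested.

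The islet list held miR-375-3p, miR-7a-5p and miR-184. All 3 were higher in diabetes by direction, as were 292 of all 578 tested, with a median log2 difference of 0.18. At an unadjusted limma p under 0.05 there were 0 of them, against 8.82% of all tested. miR-7a-5p, a brake on insulin secretion in beta cells, was at 4920, 5435 and 4809 CPM with diabetes and 4349, 4391 and 4610 CPM in normal libraries, groups that did not overlap (log2 difference 0.18, SE 0.09, limma adjusted p = 0.591). It was the 1 of 3 with groups apart, against 14.9% of all tested. miR-184, named after its values were seen, was scarce, with 13, 12 and 2 reads in diabetic and 6, 12 and 7 in normal libraries. Its groups overlapped (log2 difference 0.11, SE 0.75, limma adjusted p = 0.958). Most of the list's summed level, 6001 to 6851 CPM with diabetes and 5444 to 5715 CPM in normal libraries, was miR-7a-5p. The 4 striated muscle miRNAs summed to 27.2 to 65.4 CPM and 22.6 to 34.0 CPM. Of these, miR-1-3p was at 23.4 ± 11.8 against 11.6 ± 5.83 CPM and miR-133a-3p at 18.4 ± 6.56 against 9.67 ± 1.96 CPM (SD, n = 3 each), with 4 to 11 reads a library. The other two, miR-133b-3p and miR-206-3p, named after their values were seen, were lower by direction, but had at most 3 reads a library in both groups, so no fold is given. So 2 were higher and 2 lower, with a median of 0.022 and 0 at an unadjusted limma p under 0.05, against 8.82% of all tested.

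A wider list of 17 miRNAs tied to insulin or lipid control gave 15 that were tested, 7 higher and 8 lower in diabetes. At an unadjusted limma p under 0.05 there was 1 of 15, against 8.82% of all tested, and at an adjusted p 0. Groups did not overlap for 3 of 15, against 14.9% of all tested. The median log2 difference was -0.017. The 1 was miR-126a-3p, an endothelial miRNA that promotes vascular endothelial growth factor signalling. It was at 10747, 10362 and 12524 CPM with diabetes and at 8141, 9933 and 7338 CPM in normal libraries, with each diabetic library above each normal one. Its log2 difference was 0.41 (SE 0.11, limma adjusted p = 0.348). The other arm, miR-126a-5p, named after its values were seen, had a log2 difference of 0.13 at a mean of 1236 CPM. In this list groups were also apart for miR-27b-3p and miR-148a-3p, both lower in diabetes. Their log2 differences were -0.17 and -0.23 (limma adjusted p = 0.620 and 0.669).

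The most abundant of that list, miR-143-3p, a miRNA of smooth muscle-like cells that impairs insulin signalling in liver, was at 86042 ± 4777 against 82425 ± 9575 CPM (SD, n = 3 each). Next came miR-29a-3p, which lowers insulin signalling in liver and fat cells, at 11579 ± 858 against 10600 ± 497 CPM (SD, n = 3 each). Their log2 differences were 0.067 (SE 0.091) and 0.13 (SE 0.088), with limma adjusted p-values of 0.810 and 0.728. In the testis list, 3 of 5 were higher and 2 lower, with a median of 0.014. Of these, 1 of 5, miR-202-5p, a gonadal miRNA, had an unadjusted limma p under 0.05, against 8.82% of all tested, and it was also the 1 with groups apart, against 14.9%. It was at 3977, 4322 and 4020 CPM with diabetes and 3103, 3575 and 3341 CPM in normal libraries, groups that did not overlap (log2 difference 0.30, SE 0.10, limma adjusted p = 0.348). The other arm, miR-202-3p, named after its values were seen, was lower by direction, at 130 ± 12.7 against 150 ± 28.9 CPM (SD, n = 3 each). Its groups overlapped (log2 difference -0.18, SE 0.23, limma adjusted p = 0.808).

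The miRNAs whose pattern over the 6 libraries lay nearest to that of miR-122-5p were sought among the 189 others with a mean of at least 100 CPM. The measure was the root mean square difference of log2(CPM + 1) values, each centred on its own mean. In order, the nearest were miR-19a-3p at 0.26, the predicted entry 11_31672 at 0.28, miR-152-3p at 0.35, the predicted entry 2_7622 at 0.36 and miR-224-5p at 0.36. miR-122-5p itself varied by 0.50 about its mean on the same scale, so even the nearest followed it only in part.

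Of these, miR-19a-3p, of the growth-promoting miR-17-92 cluster, was at 111, 121 and 78.3 CPM with diabetes and 150, 114 and 142 CPM in normal libraries. Its lowest value was in diabetic replicate 3 and its highest in normal replicate 1, as for miR-122-5p, but its groups overlapped (log2 difference -0.39, SE 0.25, limma adjusted p = 0.726). miR-224-5p was at 190, 188 and 195 CPM against 283, 209 and 200 CPM, groups that did not overlap (log2 difference -0.26, SE 0.19, limma adjusted p = 0.774). These miRNAs were chosen for likeness to miR-122-5p over these same libraries. Their shared extremes and lower values with diabetes therefore follow in part from the choice and are not separate evidence.

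**Figure D4:**
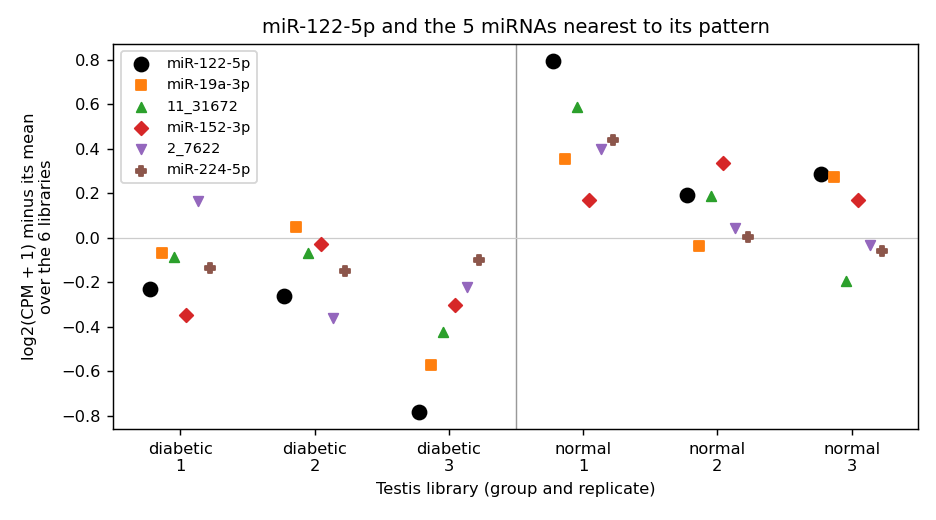
Log2(CPM + 1) minus its own mean over the 6 libraries (y axis) for miR-122-5p (black circles) and the 5 miRNAs nearest to its pattern, by testis library. miR-122-5p runs from -0.78 in diabetic replicate 3 to 0.79 in normal replicate 1, a wider range than any of the 5.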

How the data were processed

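Small RNA of rat testes was sequenced in 6 libraries, and groups were taken from the condition label. By the published methods, the authors removed adaptors, counted small RNAs, annotated them by miRBase and computed CPM. The deposited CPM values carry headings that say TPM, but all libraries sum to the same total and no length term was found. The submitters' processing notes name Bowtie 0.12.2 and the mouse build mm8 without a role, and the miRBase release is not given in the sources used here. The labels' extraction text describes a poly(A) mRNA library, whereas the methods describe single-end miRNA sequencing.

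Whole reads were recovered as the smallest total for which each value, to within its rounding to 1 decimal, was a whole number, which held for 100% of values in each library. The test, on miRNAs reaching 1 CPM in 3 or more libraries, was limma 3.58.1 (eBayes with trend, R 4.3.3) on log2(CPM + 1), two-sided, Benjamini-Hochberg over all 578, checked on simulated counts. edgeR 4.0.16 and DESeq2 1.42.0 ran on the recovered reads as alternatives. Since pooling was not stated, p-values measure only the spread between these samples, which may be technical.

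Of the 8 members, 6 matched a RefSeq mature sequence by name. Named miRNAs were the members, the 5 and 3 nearest in pattern to miR-122-5p and miR-375-3p, the 2 known ones on either side of miR-122-5p in level, those sharing a seed, and from each list the 2 most abundant and any with an unadjusted p under 0.05. Members, lists and rules were chosen with earlier results of these data known. The lists were liver, islet, red blood cell, striated muscle, testis, and insulin and lipid.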

Additional observations from a re-analysis of the deposited data

How the results depend on the processing

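The counts of other members at an unadjusted or an adjusted p under 0.05 were 0 under each alternative run, including DESeq2 and edgeR on the recovered reads. The difference of miR-122-5p ran from -0.89 to -0.85 with other settings and from -0.96 to -0.66 over the fits lacking a replicate. Since it was chosen for this difference and its groups did not overlap, leaving out a replicate could not turn its sign. These ranges are a description and not separate evidence. The log2 ratio of miR-103-3p to miR-107-3p ranged from 0.14 to 0.33 without one replicate. Alternatives for named miRNAs outside the metabolic group were chosen after seeing the data. Same-numbered libraries were not stated to be paired, and their deviations correlated by -0.11, -0.07 and -0.06 over 296 miRNAs, with 0 of 3 closest to its own number. With the replicate block the difference of miR-122-5p was -0.85 (SE 0.13), the ratio 0.25 (exact sign permutation p = 0.25), and 0 other members were called. That sign permutation p is the smallest that 3 pairs allow.

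Without one replicate miR-375-3p ranged from -0.011 to 0.32 and its log2 ratio to miR-103-3p from -0.075 to 0.25. Signs of values near 0 also turned without one replicate, over ranges of -0.30 to 0.017 for miR-192-5p, -0.23 to 0.032 for miR-486, -0.23 to 0.16 for miR-451-5p, -0.11 to 0.0090 for miR-34c-5p, -0.0062 to 0.043 for miR-449a-5p, -0.0032 to 0.16 for miR-143-3p, -0.034 to 0.11 for miR-15b-5p and -0.012 to 0.14 for miR-199a-3p. With DESeq2 size factors, TMM factors, the DESeq2 and the edgeR test, miR-451-5p was at -0.021, -0.017, -0.013 and -0.0082 and miR-449a-5p at -0.018, -0.014, -0.019 and -0.015, against 0.011 and 0.014 as reported. The median of all tested was -0.027 and -0.022 with the first 2 scalings, against 0.0046. The cause of these turns was not tested. At an unadjusted p under 0.05, miR-202-5p and miR-126a-3p were lost with eBayes without the trend, and miR-194-5p passed in 9 alternatives but was at -0.18 and -0.22 without normal or diabetic replicate 3, while miR-322-5p, let-7i-5p and miR-871-3p passed in some. Depth limits the arms of miR-33, which reached 9 reads at most, and the filter of at least 10 reads in every library left them no value.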

Other observations

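A core of 6 bases, AGCAGC, within the first 8 bases of the mature strand is shared by miR-103-3p and miR-107-3p with the miR-15 and miR-16 family. It was searched on the mature strand only and was held by 8 of the 492 known miRNAs with a RefSeq sequence (1.63%). The 6 outside the metabolic group were miR-15b-5p, miR-16-5p, miR-195-5p, miR-322-5p, miR-497-5p and miR-503-5p, which restrain the cell cycle. In these the core starts 1 base later than in miR-103-3p, so the seeds differ, as the core in capitals shows.
miR-16-5p: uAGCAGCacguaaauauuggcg
miR-322-5p: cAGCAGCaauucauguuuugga

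Their mean levels ran from 152 to 4156 CPM. By direction 5 were lower and 1 higher in diabetes, with log2 differences from -0.31 to 0.04 and a median of -0.22 beside 0.0046 over all tested. At an unadjusted limma p under 0.05 there were 0, against 8.82% of all tested. miR-15a-5p, of that family by name but not found by the search, was higher by direction (log2 difference 0.31, mean 8.58 CPM). The search covered only 492 of the 539 known miRNAs, and whether miR-15a-5p holds the core is not settled here. The counts by direction leave it out. miR-16-5p averaged 3993 ± 477 CPM with diabetes and 4319 ± 428 CPM without (SD, n = 3 each). miR-322-5p, with a log2 difference of -0.31 (SE 0.16, limma adjusted p = 0.567), was the 1 of 6 whose groups did not overlap, against 14.9% of all tested. This group was looked at after the sequences were compared.

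The miRNAs nearest in pattern to miR-375-3p were miR-676 at a root mean square difference of 0.12, miR-199a-3p at 0.14 and let-7i-5p at 0.15, where miR-375-3p itself varied by 0.24 about its mean. Their log2 differences were 0.22 (SE 0.16), 0.068 (SE 0.11) and 0.24 (SE 0.11), with limma adjusted p-values of 0.728, 0.831 and 0.551. All 3 were lowest in normal replicate 3, as was miR-375-3p. They were chosen for likeness to it over these same libraries, so this and the direction of their differences are not separate evidence.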
